A study of Mus musculus with 6 samples.

Results

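The genes described here were 10 mesenchymal transcription factors of fibroblasts, listed by name: Twist1, Twist2, Snai1, Snai2, Zeb1, Zeb2, Prrx1, Prrx2, Tcf21 and Tbx15. They were 10 of 21938 protein-coding genes. For each gene, every ATAC-seq peak inside the gene or within 50 kb of its transcription start site (TSS) was taken, and every Tfcp2l1 ChIP-seq peak within 200 kb of the TSS. Merging the peaks that overlap or touch gave 114 regions near the 10 genes, of 118552 near any protein-coding gene and 170532 in all. The genes were listed by name, and the rule that assigned peaks to them used distance alone.

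Twist, Snai and Zeb proteins are the classic drivers of the epithelial-mesenchymal transition. They bind E-boxes, short DNA words through which Snai and Zeb factors repress epithelial genes such as the E-cadherin gene Cdh1. Prrx1 and Prrx2 are homeobox factors of limb and craniofacial mesenchyme, Tcf21 is a basic helix-loop-helix (bHLH) factor of visceral and cardiac fibroblasts, and Tbx15 is a T-box factor of limb, skin and skeletal mesenchyme. Embryonic fibroblasts come from such mesenchyme, and an open promoter or enhancer is where the transcription machinery can reach these genes.

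The study followed mouse embryonic fibroblasts (MEFs) in low or atmospheric oxygen and asked what the factor Tfcp2l1 does as they escape senescence. All cells were of strain C57BL/6J, were grown in DMEM with fetal bovine serum, penicillin and streptomycin, and carried no transgene or allele named in the labels. The 4 ATAC-seq libraries, from MEFs of E13.5 embryos, were labelled Hyp-Imm (immortalized, 3% oxygen), Norm-Sen (senescent, 20% oxygen), Hyp-Pro (passage 1, 3% oxygen) and Norm-Pro (passage 1, 20% oxygen). The 2 Tfcp2l1 ChIP-seq libraries were labelled Hyp (immortalized, 3% oxygen) and Norm (senescent, 20% oxygen), with no embryonic age given. Each condition had 1 library, so spread between replicates could not be measured, conditions were not tested against each other, and intervals on shares cover counting error only. How many embryos or cultures stood behind a library was not stated. In ATAC-seq the Tn5 transposase cuts accessible DNA, and each peak carries a fold enrichment over local background and a −log10 q, both computed within its own library. These values rank peaks within a list and are not a level that can be compared between libraries.

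The libraries differed in ways that touch every count below. The peak lists held 37770 (Hyp-Imm), 61408 (Norm-Sen), 47523 (Hyp-Pro) and 69122 (Norm-Pro) peaks, and the background read from the fold values was 0.445, 1.77, 0.956 and 1.24 reads per position in the same order. The condition in the deposited file name went against the label in all 4 libraries. By file name the library labelled Hyp-Imm would be Norm-Sen, that labelled Norm-Sen would be Hyp-Pro, that labelled Hyp-Pro would be Norm-Pro and that labelled Norm-Pro would be Hyp-Imm. The X chromosome held 1.44% (Hyp-Imm), 4.44% (Norm-Sen), 4.76% (Hyp-Pro) and 1.08% (Norm-Pro) of the peaks, so the libraries fell into the same 2 pairs as the late and passage 1 libraries of the file names. Labels were followed throughout, and names such as Hyp-Imm mean the library with that label. Of 8 fibroblast marker genes, 2 (Hyp-Imm), 4 (Norm-Sen), 3 (Hyp-Pro) and 5 (Norm-Pro) had a promoter peak. Col1a2 and Vim had one in all 4 libraries (25.8% of all protein-coding genes), and Col3a1 and Lum had none in any (34.0%). Of 17 markers of endothelial, blood, skeletal muscle and neural cells, 4 (Hyp-Imm), 5 (Norm-Sen), 6 (Hyp-Pro) and 7 (Norm-Pro) had one. Among these, Kdr and Map2 had one in all 4, and Tek, Emcn, Ptprc, Myod1, Myog, Sox10 and Pax6 had none in any. A promoter peak does not measure expression, and the part of other cell types in the peaks was not tested.

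The sequences below are those that the main results turn on. The promoters of Snai1 (chr2:167537945-167538194) and Twist1 (chr12:33957421-33957670) lay in the regions open in all 4 libraries. The regions at 3 further genes are shown because they were open in 2 or 3 libraries, none of them Hyp-Imm. These were Twist2 (chr1:91800611-91800768), Snai2 (chr16:14705438-14705618) and Tbx15 (chr3:99253118-99253368). All positions are on GRCm38, on the plus strand, which is the strand of each of these 5 genes. The promoter sequences are the 250 bases before the TSS in RefSeq's table for that build, and the regions were read from the genome. Capitals mark every match, on either strand, to the 9 short motifs searched (E-boxes CACCTG and CATNTG, AP-1 TGANTCA, TEAD GGAATG, RUNX TGTGGT, CRE TGACGTCA, Sp and Klf GGGCGG, NF-Y CCAAT and the hypoxia response core ACGTG), none of which contains another.
Snai1 promoter: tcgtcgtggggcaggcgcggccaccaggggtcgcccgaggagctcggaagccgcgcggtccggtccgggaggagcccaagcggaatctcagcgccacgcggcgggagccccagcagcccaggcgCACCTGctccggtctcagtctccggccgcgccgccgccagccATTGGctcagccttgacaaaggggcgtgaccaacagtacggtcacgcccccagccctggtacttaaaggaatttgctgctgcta
Twist1 promoter: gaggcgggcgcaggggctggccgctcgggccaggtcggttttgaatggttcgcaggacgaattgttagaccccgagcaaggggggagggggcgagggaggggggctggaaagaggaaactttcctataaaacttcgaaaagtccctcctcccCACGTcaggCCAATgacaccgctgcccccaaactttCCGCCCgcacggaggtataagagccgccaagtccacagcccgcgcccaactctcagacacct
Twist2 region: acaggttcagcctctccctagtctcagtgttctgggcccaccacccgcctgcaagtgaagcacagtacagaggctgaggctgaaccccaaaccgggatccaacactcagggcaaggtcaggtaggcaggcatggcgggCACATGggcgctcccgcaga
Snai2 region: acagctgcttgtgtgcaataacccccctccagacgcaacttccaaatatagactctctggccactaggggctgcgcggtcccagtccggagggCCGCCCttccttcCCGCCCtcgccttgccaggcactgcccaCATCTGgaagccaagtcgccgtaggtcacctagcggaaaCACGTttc
Tbx15 region: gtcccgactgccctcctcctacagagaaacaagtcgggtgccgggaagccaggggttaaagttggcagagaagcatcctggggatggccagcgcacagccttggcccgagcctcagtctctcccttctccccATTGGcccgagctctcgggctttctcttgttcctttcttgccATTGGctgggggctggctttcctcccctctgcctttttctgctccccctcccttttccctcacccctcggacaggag

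In these sequences the Snai1 promoter held 1 CACCTG E-box, the word that Snai1 protein binds, starting 126 bp before the TSS, and 1 CCAAT box (read as ATTGG) starting 84 bp before it. The Twist1 promoter held no E-box of either kind. It held a hypoxia response core (CACGT) 98 bp, a CCAAT box 89 bp and an Sp and Klf word (CCGCCC) 62 bp before the TSS. The Twist2 region held 1 Twist-type E-box (CACATG), the Snai2 region 1 (CATCTG) beside 2 CCGCCC words and 1 CACGT, and the Tbx15 region 2 CCAAT boxes. A match is a word in the sequence and not a measured binding site.

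The promoters of the 10 genes fell into 5 groups. A promoter peak is one within 1 kb of the start site of a protein-coding transcript of the gene, counted at any of its transcripts. Twist1, Snai1, Zeb1 and Tbx15 had one in all 4 libraries, 4 of 10 against 25.8% of all protein-coding genes. Twist2 and Snai2 had one in every library other than Hyp-Imm, a pattern that 12.0% of all genes shared. Zeb2 had one in Hyp-Pro and Norm-Pro alone (2.63% of all genes), and Tcf21 in Norm-Pro alone (4.35%). Prrx1 and Prrx2 had none in any library, 2 of 10 against 34.0% of all genes.

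By library, 4 of 10 genes had a promoter peak in Hyp-Imm (34.2% of all genes), 6 did in Norm-Sen (51.6%), 7 did in Hyp-Pro (48.2%) and 8 did in Norm-Pro (53.4%). The exact 95% intervals on these shares ran over 12.2 to 73.8%, 26.2 to 87.8%, 34.8 to 93.3% and 44.4 to 97.5%, and each held the share over all genes. The 4 sets were nested: every gene with a promoter peak in Hyp-Imm had one in Norm-Sen, every such gene in Norm-Sen had one in Hyp-Pro, and every such gene in Hyp-Pro had one in Norm-Pro. The list labelled Hyp-Imm was also the shortest and shallowest and that labelled Norm-Pro the longest, while Hyp-Pro, which held the whole Norm-Sen set, had a shorter list than Norm-Sen. The part of list length in these counts was not tested. Zeb2, with 17 coding start sites, had more places to be counted than Twist1, Snai1 and Snai2, with 1 each.

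**Figure D1:**
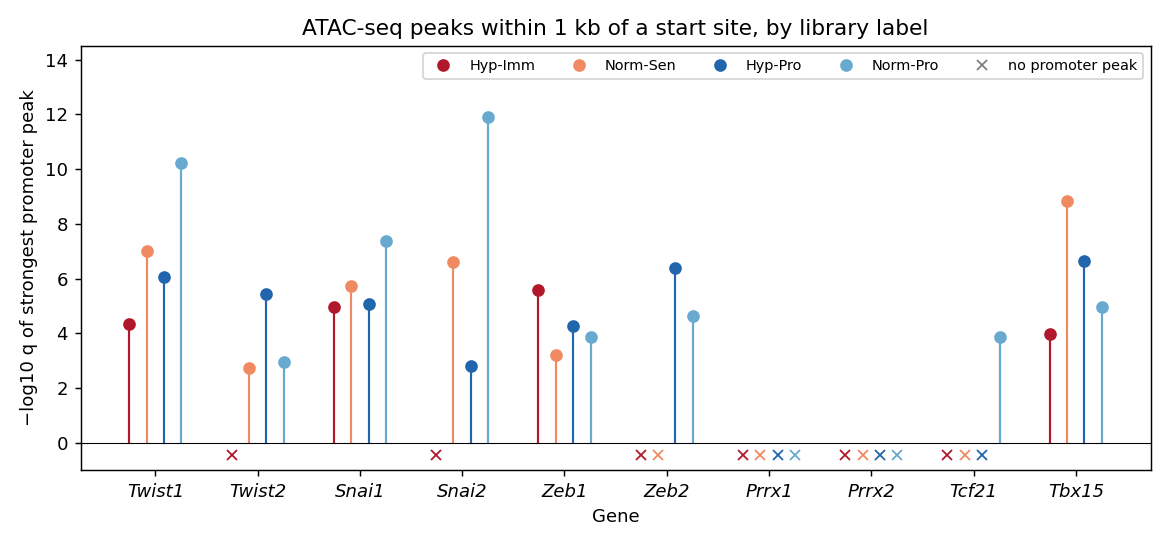
Strongest promoter peak of each gene in each library. The vertical axis is the −log10 q of the peak with the highest value within 1 kb of a coding start site, by library label, and a cross below 0 marks a library with no such peak. Crosses stand only in Hyp-Imm for Twist2 and Snai2 and in all 4 libraries for Prrx1 and Prrx2. The −log10 q depends on the depth of each library and ranks peaks within it.

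Twist1 (chr12:33957671-33959829), a bHLH factor of cranial and limb mesenchyme, had 1 merged region across its TSS that was open in all 4 libraries (chr12:33957365-33957764), with the Hyp-Imm peak wholly upstream of the TSS. That peak shared no base with the Norm-Sen peak, and the longer Norm-Pro peak joined them into the region. The −log10 q of the strongest peak in the region was 4.33 in Hyp-Imm (fold 5.64, top 18.7% of the list), 7.0 in Norm-Sen (fold 5.17, top 9.95%), 6.06 in Hyp-Pro (fold 5.40, top 15.4%) and 10.2 in Norm-Pro (fold 6.19, top 4.21%). Within each list, 54.7% (Hyp-Imm), 58.8% (Norm-Sen), 52.4% (Hyp-Pro) and 77.0% (Norm-Pro) of the genes with a promoter peak had a weaker one. The promoter was thus in the stronger part of every list, above the median of such genes. A second region, 959 bp inside the gene, was open in Norm-Sen (−log10 q 3.49), Hyp-Pro (3.88) and Norm-Pro (1.99) and not in Hyp-Imm. The same held for a region between genes 10073 bp downstream of the TSS (3.18, 2.55 and 2.81 in the same 3 libraries). Both of the Hyp-Imm peaks of Twist1 lay at the promoter, while the strongest peaks away from it were at 4.02 (Norm-Sen), 3.12 (Hyp-Pro) and 2.81 (Norm-Pro).

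Twist2 (chr1:91801461-91848028), the close relative of Twist1 in dermis and cranial mesenchyme, was open at a single promoter region, 772 bp before the TSS, in 3 libraries. The −log10 q was 2.72 in Norm-Sen (top 82.0% of the list), 5.44 in Hyp-Pro (top 21.1%) and 2.96 in Norm-Pro (top 70.5%), and Hyp-Imm had no peak there. The Hyp-Pro peak was therefore in the upper part of its list and the other 2 in the lower part. The region overlaps an exon of the antisense noncoding gene Gm29100. Norm-Sen had no other peak near Twist2. The strongest elsewhere was 42463 bp upstream in Hyp-Imm (2.74), 15418 bp inside the gene in Hyp-Pro (3.28) and 22133 bp inside it in Norm-Pro (4.37).

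Snai1 (chr2:167538195-167542814), the zinc finger repressor known as Snail, had 1 merged region across its TSS that was open in all 4 libraries (chr2:167537926-167538259), though only the Hyp-Pro peak reached the TSS and the other 3 ended upstream of it. Its −log10 q was 4.96 in Hyp-Imm (fold 5.58, rank 4232), 5.73 in Norm-Sen (fold 3.98, rank 9487), 5.09 in Hyp-Pro (fold 4.44, rank 11405) and 7.38 in Norm-Pro (fold 4.72, rank 5996). These ranks are the top 11.2%, 15.4%, 24.0% and 8.67% of the lists, so that Hyp-Imm and Norm-Pro placed it higher than the other 2. Hyp-Imm had a second promoter peak 185 bp after the TSS (3.38). Away from the promoter, the strongest peaks were 11693 bp upstream in Hyp-Imm (3.83), at the Spata2 promoter in Norm-Sen (6.21), and in an intron of the noncoding gene Gm11476 in Hyp-Pro (3.32) and Norm-Pro (7.42). That intron, 24060 to 36820 bp downstream of Snai1, held 6 regions, and none was open in Hyp-Imm.

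Snai2 (chr16:14705852-14709385), the zinc finger repressor known as Slug, had its promoter peaks at different places in different libraries. Norm-Pro had a peak 324 bp before the TSS with −log10 q 11.9 and fold 8.20 (rank 1921, top 2.78%), stronger than the promoter peaks of 84.6% of the genes that had one. Hyp-Pro had a weak peak in the same region (2.82, fold 4.37, top 84.5%). Norm-Sen lacked it and had instead 1 peak on the TSS (4.94) and 1 at 414 bp after it (6.61, fold 5.50, top 11.1%). Hyp-Imm had no promoter peak, and its sole peak in the window was 35441 bp downstream (2.08, top 93.2%). The gene was thus open at its promoter in 3 libraries, with no single region shared by all 3. The strongest peaks elsewhere were inside the gene in Norm-Sen (3.50), 33287 bp downstream in Hyp-Pro (4.72) and 1782 bp upstream in Norm-Pro (3.61).

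Zeb1 (chr18:5591860-5775467), a zinc finger and homeobox repressor of epithelial genes, had a promoter peak in each library but no promoter region that all 4 shared. The region 887 bp after the TSS was open in Hyp-Imm (−log10 q 5.57, fold 6.59, top 8.38%), Norm-Sen (2.64, top 89.9%) and Norm-Pro (3.86, top 34.7%). This was the strongest promoter peak of the 10 genes in Hyp-Imm. Hyp-Pro was open instead at 317 bp after the TSS (4.28, top 38.1%). Zeb1 had the most regions of the 10 genes, 20, and was the longest of them, at 183608 bp. Of its regions, 18 were open in 1 library alone, as were 82.5% of the regions near all genes. Its strongest peaks away from the promoter were deep in its introns in Hyp-Imm (3.81) and Hyp-Pro (3.84), 26869 bp upstream in Norm-Sen (6.75) and in an exon 50839 bp inside the gene in Norm-Pro (5.57).

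Zeb2 (chr2:44983632-45117395), the paralogue of Zeb1, was open at promoters in the passage 1 libraries alone. Hyp-Pro had 3 promoter peaks, at −log10 q 6.39 (7807 bp inside the gene, at a later start site), 4.72 (94544 bp inside, at another) and 3.01 (on the first TSS). Norm-Pro had 3 as well, at 4.64 (188 bp after the first TSS), 2.71 (6921 bp inside) and 2.59 (in the region at 7807 bp, the only one shared with Hyp-Pro). Hyp-Imm and Norm-Sen had peaks only in introns, 1 in Hyp-Imm (2.89) and 2 in Norm-Sen (2.87 and 2.17). By the file names the libraries with Zeb2 promoter peaks would be Norm-Pro and Hyp-Imm, 1 early and 1 late.

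Prrx1 (chr1:163245119-163313710) and Prrx2 (chr2:30834972-30881251) had no peak within 1 kb of any coding start site in any library. The nearest to Prrx1 was a region centred 1316 bp after the TSS, open in Hyp-Imm (−log10 q 4.33, fold 5.64, top 18.7%) and Norm-Pro (3.86, fold 4.23, top 34.7%). The Hyp-Imm peak was centred in an intron and the Norm-Pro peak in an exon. The strongest peaks of Prrx1 in Hyp-Pro (4.72) and Norm-Pro (4.69) lay within 1 kb of each other in an intron near 39 kb but did not overlap. The only Norm-Sen peak was 30417 bp upstream (2.68). The nearest peak to Prrx2 was 1559 bp upstream, in Norm-Sen alone (3.40). The strongest region near any of the 10 genes stood in the Prrx2 window at −log10 q 8.43 (Hyp-Imm), 19.6 (Norm-Sen), 19.4 (Hyp-Pro) and 20.8 (Norm-Pro). It lies at the promoter of the neighbouring gene Ntmt1, a protein N-terminal methyltransferase, 27093 bp from the Prrx2 TSS. A region at the promoter of Asb6 was open in Hyp-Imm (2.15), Norm-Sen (4.72) and Norm-Pro (6.41). Inside Prrx2 itself the strongest peak was at 3.75 in Hyp-Imm, 3.84 in Hyp-Pro and 3.07 in Norm-Pro, and Norm-Sen had none.

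Tcf21 (chr10:22817281-22820174) had 7 regions, each open in 1 library, as were 82.5% of the regions near all genes. Its promoter peak, 544 bp after the TSS, was found in Norm-Pro (−log10 q 3.86, fold 4.55, top 34.7%). Hyp-Imm had 1 peak in the window, 23161 bp upstream (3.81), Norm-Sen 1 at 46945 bp downstream (2.17) and Hyp-Pro 1 at 34803 bp downstream (2.86). The Norm-Sen peak was nearer to the TSS of Tbpl1.

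Tbx15 (chr3:99240381-99354259) had no peak at its first start site, and its promoter peaks stood at a later one, near 13 kb inside the gene. The region 12862 bp after the first TSS was open in Norm-Sen (−log10 q 8.82, fold 5.46, top 5.91%), Hyp-Pro (6.65, fold 5.38, top 12.0%) and Norm-Pro (4.97, fold 4.32, top 20.0%). Hyp-Imm was open at 13532 bp instead (3.98, fold 5.52, top 22.3%). A region between these, at 13316 bp, was open in Hyp-Pro (4.41) and Norm-Pro (3.89). The Norm-Sen peak at the later start site was the only Norm-Sen peak in the whole Tbx15 window, beside 3 in Hyp-Imm, 7 in Hyp-Pro and 9 in Norm-Pro.

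**Figure D2:**
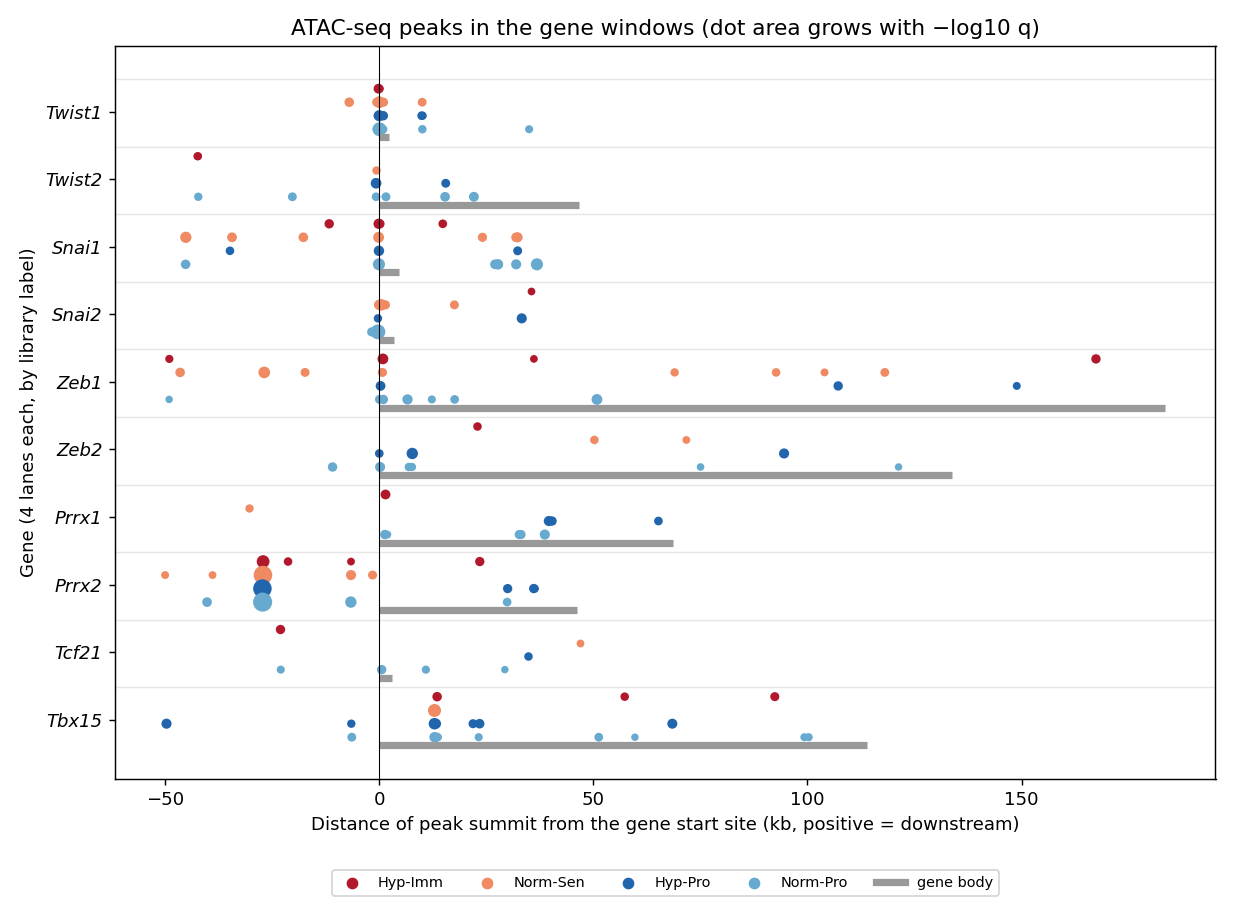
Positions of all ATAC-seq peaks near the 10 genes. The horizontal axis is the distance of the peak summit from the gene's TSS in kb, positive downstream, with 1 lane per library label, grey bars for the gene bodies and dot areas that grow with −log10 q. The largest dots are those at the Ntmt1 promoter, 27093 bp upstream of Prrx2, in all 4 lanes, while the intronic dots of Zeb1 mostly stand in 1 lane each.

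With promoter peaks included, the windows of the 10 genes held 23 peaks in Hyp-Imm, 37 (Norm-Sen), 34 (Hyp-Pro) and 58 (Norm-Pro). Every gene had at least 1 peak in every library, against 76.7% of all genes. The median number per gene was 2 (Hyp-Imm), 3 (Norm-Sen), 3 (Hyp-Pro) and 6 (Norm-Pro), beside 2, 4, 3 and 4 over all genes. The peaks in the top 10% of their list were 2 of 23 in Hyp-Imm (11.9% of peaks near any gene), 3 of 37 in Norm-Sen (12.1%), 1 of 34 in Hyp-Pro (12.0%) and 5 of 58 in Norm-Pro (12.7%). The fold value gave whole reads for 5 of 23 peaks in Hyp-Imm, 5 of 37 in Norm-Sen, 9 of 34 in Hyp-Pro and 12 of 58 in Norm-Pro. The summits of those peaks were covered by 5 to 7 reads (Hyp-Imm), 10 to 12 (Norm-Sen), 7 to 10 (Hyp-Pro) and 7 to 12 (Norm-Pro). The Hyp-Pro peaks at Snai2, Zeb2, Prrx1 and Tbx15 with fold 5.62 and −log10 q 4.72 shared 1 such value. A region without a peak may therefore be one with a few reads less, and its absence from a list does not show closed chromatin.

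**Figure D3:**
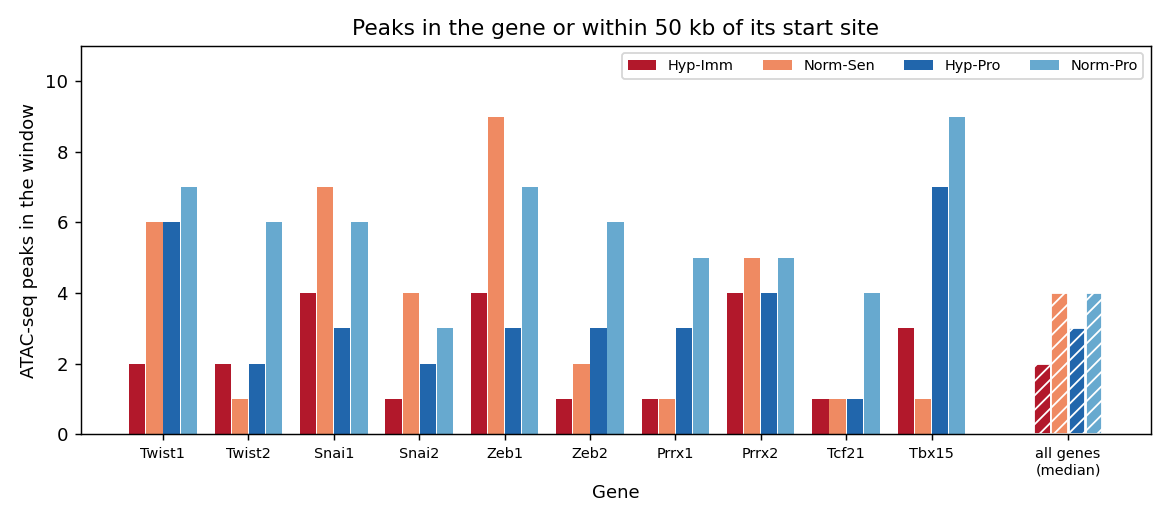
Number of ATAC-seq peaks per gene window and library label, with the median over all protein-coding genes as hatched bars at the right. Zeb1 in Norm-Sen and Tbx15 in Norm-Pro have 9 peaks each, and Snai2, Zeb2, Prrx1 and Tcf21 have 1 each in Hyp-Imm.

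Of the 114 regions, 27 were at a promoter of the 10 genes, 15 at a promoter of another annotated gene or transcript, 46 in introns, 4 in exons and 22 between genes. Open in exactly 1 library were 91 (79.8%, against 82.5% near all genes), in 2 libraries 14 (12.3%, against 8.80%), in 3 libraries 6 (5.26%, against 4.45%) and in all 4 libraries 3 (2.63%, against 4.24%). Those 3 were the promoters of Twist1 and Snai1 and the Ntmt1 promoter beside Prrx2. The share of the regions that was open was 20.2% in Hyp-Imm (22.1% near all genes), 32.5% in Norm-Sen (against 37.6%), 28.9% in Hyp-Pro (against 29.6%) and 49.1% in Norm-Pro (against 41.2%, exact 95% interval 39.6 to 58.7%). The regions of the 10 genes were thus divided among the libraries much as those near all genes were.

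Immortalized cells in 3% oxygen against senescent cells in 20% oxygen is the study's central contrast. Of 54 regions open in Hyp-Imm or Norm-Sen, 17 were in the Hyp-Imm list and not the Norm-Sen list (31.5%, interval 19.5 to 45.6%), beside 30.2% near all genes. The reverse held for 31 (57.4%, interval 43.2 to 70.8%), beside 59.0%. At promoters, none of 6 genes was open in Hyp-Imm alone of this pair (8.32% of all genes open in either), and Twist2 and Snai2 were open in Norm-Sen and not Hyp-Imm (39.3%). By the file names the same contrast gave 48 of 71 regions open in Hyp-Imm alone (61.4% near all genes) and 15 of 71 in Norm-Sen alone (28.0%), so its direction turned with the naming. Under either naming the larger count was that of the longer list. With the same number of peaks taken from each library, 19 of 40 regions were open in Hyp-Imm alone of this pair (42.0% near all genes) and 17 of 40 in Norm-Sen alone (45.3%).

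Senescence was set against passage 1 in 20% oxygen. Of 81 regions, 25 were open in Norm-Sen and not Norm-Pro (30.9%, interval 21.1 to 42.1%, beside 39.3%) and 44 in Norm-Pro and not Norm-Sen (54.3%, interval 42.9 to 65.4%, beside 44.7%). No promoter was open in Norm-Sen and not Norm-Pro (12.4% of all genes open in either), and those of Zeb2 and Tcf21 were open in Norm-Pro and not Norm-Sen (15.3%). Tbx15 differed most by count, with 1 peak in Norm-Sen and 9 in Norm-Pro, and Zeb1 had the opposite order, with 9 in Norm-Sen and 7 in Norm-Pro. By the file names the order of the region counts stayed. Then 20 of 53 regions were open in Norm-Sen and not Norm-Pro (35.9% near all genes) and 30 of 53 the reverse (52.1%). With equal numbers of peaks per library the counts were 14 of 44 (38.6% near all genes) and 23 of 44 (40.9%).

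Immortalization was set against passage 1 in 3% oxygen. Of 53 regions, 20 were open in Hyp-Imm and not Hyp-Pro (37.7%, interval 24.8 to 52.1%, beside 35.9%) and 30 in Hyp-Pro and not Hyp-Imm (56.6%, interval 42.3 to 70.2%, beside 52.1%). No promoter was open in Hyp-Imm and not Hyp-Pro (10.3%), and 3 of 7, those of Twist2, Snai2 and Zeb2, were open in Hyp-Pro and not Hyp-Imm (36.4%). Twist1 had 2 peaks in Hyp-Imm and 6 in Hyp-Pro. By the file names this direction turned as well, with 44 of 81 regions open in Hyp-Imm and not Hyp-Pro (44.7% near all genes) and 25 of 81 the reverse (39.3%). With equal numbers of peaks per library the counts were 20 of 44 (41.8% near all genes) and 21 of 44 (45.3%).

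Oxygen at passage 1 was the remaining contrast. Of 76 regions, 20 were open in Hyp-Pro and not Norm-Pro (26.3%, interval 16.9 to 37.7%, beside 32.4%) and 43 in Norm-Pro and not Hyp-Pro (56.6%, interval 44.7 to 67.9%, beside 51.5%). The promoter of Tcf21 was open in Norm-Pro and not Hyp-Pro, 1 of 8 (19.2%), and none the other way (10.5%). The direction of the region counts turned with the file names, to 29 of 62 in Hyp-Pro and not Norm-Pro (48.7% near all genes) and 25 of 62 the reverse (34.8%). With equal numbers of peaks per library they were 18 of 48 (39.0% near all genes) and 24 of 48 (41.1%). In all 4 contrasts the interval around the share near the 10 genes held the share near all genes. The contrasts share libraries and are not independent of each other.

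**Figure D4:**
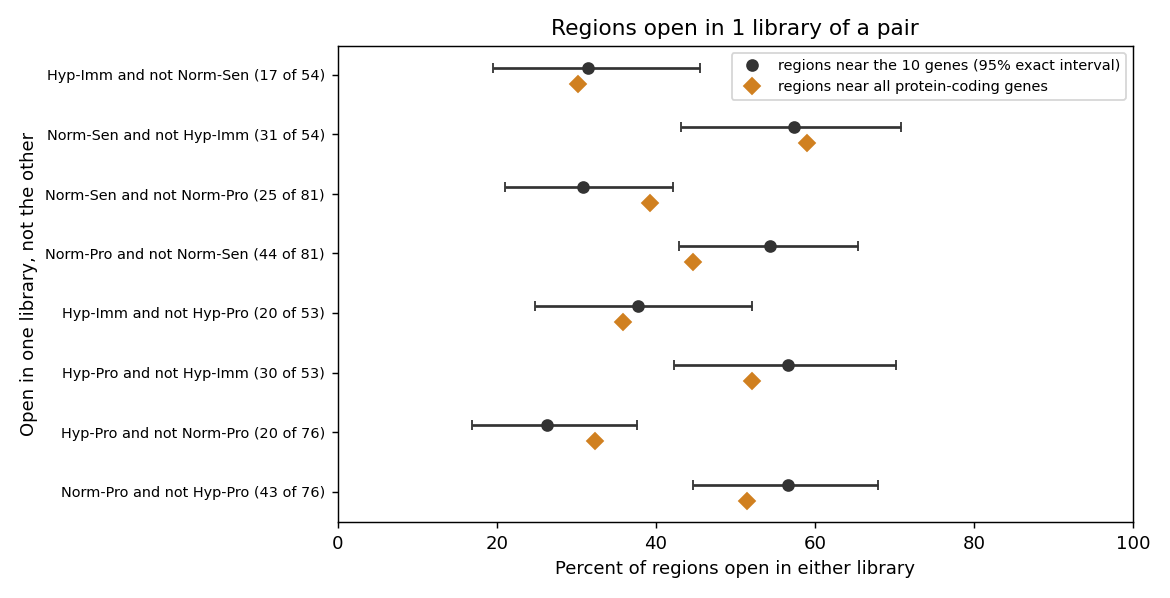
Regions open in 1 library of a pair and not in the other. Dots are the percent of regions near the 10 genes open in either library, with exact 95% intervals that cover counting error only, and diamonds are the same percent near all protein-coding genes. Every diamond lies inside the interval beside it, also for Norm-Pro and not Norm-Sen, where 54.3% stands against 44.7%.

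Of the 14 regions open in exactly 2 libraries, 6 were open in Hyp-Pro and Norm-Pro (23.0% of such regions near all genes), 3 in Norm-Sen and Norm-Pro (33.5%) and 3 in Hyp-Imm and Norm-Pro (8.86%). One was open in Hyp-Imm and Norm-Sen (7.43%), 1 in Norm-Sen and Hyp-Pro (21.3%) and none in Hyp-Imm and Hyp-Pro (5.97%). The 6 shared passage 1 regions were 1 each at Twist2, Snai2, Zeb2 and Prrx2 and 2 at Tbx15.

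Tfcp2l1 ChIP-seq gave 1 peak near the 10 genes. None of the 612 Hyp peaks lay within 200 kb of a TSS of the 10 genes, against 11.8% of all genes with such a peak, and 1 of the 393 Norm peaks did, at Snai1, against 8.13%. With 0 of 10 genes, the exact interval for Hyp reached 30.8%, above the share over all genes. In the whole lists, 125 of 612 Hyp peaks and 165 of 393 Norm peaks lay on a tRNA gene. The part of these peaks in the all-gene shares was not tested. The Norm peak (chr2:167630764-167630937) stands 92682 bp from the Snai1 TSS in an intron of the gene Gm20431, with fold 5.40 and −log10 q 3.47. It was rank 385 of 393, near the end of its list. The sequence is shown because it is the one ChIP-seq peak of these genes, and the capitals mark its closest stretch to the Tfcp2l1 consensus, which differed at 6 of 14 letters and is no match.
Norm ChIP-seq peak near Snai1: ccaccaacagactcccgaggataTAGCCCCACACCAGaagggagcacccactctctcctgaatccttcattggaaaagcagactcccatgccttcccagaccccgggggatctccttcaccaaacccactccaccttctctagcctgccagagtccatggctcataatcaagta

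The Tfcp2l1 consensus with at most 2 mismatches was found in the 200 bp around the summit of 2 of 114 regions (1.75%, interval 0.213 to 6.19%), beside 0.691% of all regions near genes. Neither had a ChIP-seq peak. One is at Tbx15 (chr3:99253549-99253748, plus strand), around the region of the later start site open in Hyp-Pro and Norm-Pro. The other is in coding sequence of Zeb2 (chr2:44996030-44996229, minus strand), around a peak of Norm-Pro alone that was among the weakest of its list (−log10 q 1.83). Capitals mark the match in each window, on GRCm38.
Tbx15 window: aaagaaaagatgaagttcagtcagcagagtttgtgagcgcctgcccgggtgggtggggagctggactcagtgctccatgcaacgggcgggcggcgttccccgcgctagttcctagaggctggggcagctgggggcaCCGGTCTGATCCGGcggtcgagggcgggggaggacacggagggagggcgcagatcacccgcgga
Zeb2 window: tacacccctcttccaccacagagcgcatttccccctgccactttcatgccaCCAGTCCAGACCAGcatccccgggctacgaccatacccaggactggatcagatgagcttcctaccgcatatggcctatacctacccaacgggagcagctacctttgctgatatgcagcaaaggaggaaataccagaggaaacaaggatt

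The other words were searched in the same 200 bp windows and in RefSeq promoters. The Twist-type E-box CATNTG was in 28 of 114 regions (24.6%, interval 17.0 to 33.5%), beside 36.0% of all regions near genes, and in 0 of 10 promoters, beside 39.4% of all promoters. CACCTG was in 17 regions (14.9%, beside 17.5%). AP-1 words were in 12 (10.5%, beside 7.75%), TEAD words in 11 (9.65%, beside 11.5%) and RUNX words in 14 (12.3%, beside 15.2%). The hypoxia response core was in 16 (14.0%, beside 11.6%), CCAAT in 20 (17.5%, beside 21.6%), GGGCGG in 22 (19.3%, beside 15.6%) and CRE in 0 (beside 0.514%). Of the 10 promoters, GGGCGG was in 6 (35.7% of all promoters), CCAAT in 4 (37.4%) and TEAD in 2 (14.7%). CACCTG (20.2%), AP-1 (7.81%) and the hypoxia response core (19.6%) were in 1 each. RUNX (16.8%), CRE (1.79%) and the Tfcp2l1 consensus (1.41%) were in 0. The Twist-type E-box was the one of 10 words whose share over all regions fell outside the interval of the 10 genes. The interval treats the 114 regions as independent, though many share a gene window, and no correction was made for the 10 words. The promoters numbered 10 for 7 genes, 4 of them of Zeb2 and 2 of these overlapping, and had a median GC content of 57.0%, beside 52.7% over all promoters. The part of base composition in these shares was not tested.

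Partners, signals and targets of the 10 factors were described from named lists by the same promoter rule, in the order Hyp-Imm, Norm-Sen, Hyp-Pro and Norm-Pro. The 8 bHLH partners had promoter peaks at 3, 5, 6 and 7 genes. Id4, an inhibitor that binds E proteins, the partners of Twist, had the strongest, with −log10 q 5.41 (Hyp-Imm), 12.5 (Norm-Sen), 10.9 (Hyp-Pro) and 11.8 (Norm-Pro). Id1 and Id3, of the same family, and the E protein Tcf12 had one in every library other than Hyp-Imm, the pattern of Twist2 and Snai2. The 13 genes of TGF beta and BMP signalling, which induce Snai and Zeb genes in many cells, had peaks at 6, 11, 11 and 9. The receptor genes Tgfbr1, Tgfbr2 and Bmpr1a and the signal transducer Smad3 were open in all 4 libraries, Tgfbr1 at 8.48 (Hyp-Imm), 20.1 (Norm-Sen), 15.2 (Hyp-Pro) and 20.1 (Norm-Pro).

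The 10 mesenchymal genes that mark such cells had promoter peaks at 6, 7, 6 and 9. Fn1, which encodes fibronectin, stood at 6.74 (Hyp-Imm), 6.87 (Norm-Sen), 12.9 (Hyp-Pro) and 18.0 (Norm-Pro), and the vimentin gene Vim and the integrin gene Itga5 were also open in all 4. Postn, which encodes the matrix protein periostin, was open in Norm-Pro alone (7.43). The 13 epithelial genes, several of them known to be repressed by Snai and Zeb factors, had peaks at 2, 2, 5 and 6, and no gene was open in all 4 libraries. The highest −log10 q of the list were those of Cldn7 (5.84), Epcam (5.31), Krt18 (4.51) and Cdh3 (3.72), each in Hyp-Pro, while Ovol2, Ocln and Cldn4 had their peak or their highest value in Norm-Pro and Grhl2 in Hyp-Imm. Cldn3, Esrp1 and Krt8 had none in any library. The E-cadherin gene Cdh1 stood at 2.17 in Hyp-Imm and 3.28 in Norm-Pro, with none in Norm-Sen or Hyp-Pro. The 26 other mesodermal factors had peaks at 7, 17, 8 and 15. Meis2 stood at 3.55 (Hyp-Imm), 10.3 (Norm-Sen) and 6.66 (Norm-Pro), with no promoter peak in Hyp-Pro. Meox2 stood at 10.0 (Norm-Sen), 4.72 (Hyp-Pro) and 4.27 (Norm-Pro), with none in Hyp-Imm. Tbx3 stood at 3.26 (Hyp-Imm), 9.60 (Norm-Sen), 3.13 (Hyp-Pro) and 3.76 (Norm-Pro). The all-gene shares given for each library above, 34.2%, 51.6%, 48.2% and 53.4%, are the background of these counts too.

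The last regions inside the 50 kb window were 49648 bp from the Tbx15 TSS (Hyp-Pro, fold 5.62, −log10 q 4.72) and 49932 bp from the Prrx2 TSS (Norm-Sen, fold 3.04, −log10 q 2.31). The first outside were 56204 bp from Prrx2 (Hyp-Pro, fold 4.27, −log10 q 3.21) and 56471 bp from Tbx15 (its Norm-Sen peak with fold 4.64, −log10 q 3.98).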

How the data were processed

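For ATAC-seq, the authors mapped reads to GRCm38 with Bowtie2, left out distant pairs, placed each read at its Tn5 cut and used MACS2 on each library (FDR of 0.05). For ChIP-seq, made by ChIPmentation, Bowtie and MACS2 are named in the submitters' processing notes, with no build. No ChIP-seq or ATAC-seq peak ran past a GRCm38 chromosome end (0 peaks). In the deposited files the fold enrichment is the ratio of summit pileup to local background, the −log10 p and −log10 q are those of MACS2 at the summit, the score is a rounded form of the −log10 q, and the last column is the summit offset. In that fold ratio the same constant is added to both the pileup and the background. Fold and −log10 q were used, and ranks were taken within each list by −log10 q, with ties at the best rank.

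From these, peaks of the 4 ATAC-seq lists that overlap or touch were merged, and a region was called open in a library with a peak overlapping it by 1 bp. Genes are the 21938 protein-coding genes of GENCODE vM21 (GRCm38), and the start site of a gene is its 5′ end. Depth was read from the steps of the fold values, with 1 read added to both the summit pileup and the background. Intervals are exact Clopper-Pearson intervals at 95%, computed with scipy 1.17.1 under Python 3.11.15. The counting was tested on simulated data. The genes, lists, motifs and naming rule (all 10 genes, their promoter and strongest other peaks, regions open in 3 or 4 libraries, and the 4 strongest of each list) were chosen with earlier results of these data known. Vim stands in 2 lists. The result of 1 listed gene is not reported here. Alternatives covered the peak threshold, equal list lengths, the windows, the overlap and the conditions of the file names. Merging peaks within 500 bp was added after the data were seen. RefSeq's promoter table matched 7 of the 10 genes.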

Additional observations from a re-analysis of the deposited data

Results flagged for a closer look

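For 4 regions the late library and the passage 1 library differed in one direction in 3% oxygen and in the other in 20% oxygen. Each was open in 2 libraries and had no peak in the other 2. The difference between the oxygen levels was not tested, since each condition had 1 library. The region 42318 bp upstream of Twist2 was open in Hyp-Imm (−log10 q 2.1) and Norm-Pro (2.71). The region 49056 bp upstream of Zeb1 was open in Hyp-Imm (2.51) and Norm-Pro (1.83). The region 1316 bp after the TSS of Prrx1 was open in Hyp-Imm (4.33) and Norm-Pro (3.86). The region 32294 bp downstream of Snai1 was open in Norm-Sen (4.63) and Hyp-Pro (3.32). Of the regions open in exactly 2 libraries, the first 3 were 3 of 14 (21.4%, interval 4.66 to 50.8%), beside 8.86% near all genes. The fourth, at Snai1, was 1 of 14 (7.14%, interval 0.181 to 33.9%), beside 21.3% near all genes. Each interval held the share near all genes. By the file names the first 3 would be open in the late libraries and the fourth in the passage 1 libraries.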

How the results depend on the processing

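No paired analysis was possible because each condition had 1 library and no result came from a test, and no library could be left out as a replicate for the same reason. Of 95 counts under another setting, 64 were within 1.5 times the reported one and 31 were beyond it. A −log10 q of at least 5 left 0 genes with a promoter peak in all 4 libraries, 1 region in all 4, 0 Norm ChIP-seq peaks (0 also at 10), 1 region in Hyp-Imm and not Norm-Sen, 6 the reverse, 4 in Norm-Sen and not Norm-Pro, 5 the reverse, 1 in Hyp-Imm and not Hyp-Pro, 5 the reverse, 3 in Hyp-Pro and not Norm-Pro and 5 the reverse. Promoters within 250 bp left 2 genes open in all 4. With equal numbers of peaks per library, 17 regions were open in Norm-Sen and not Hyp-Imm, 14 in Norm-Sen and not Norm-Pro, 23 the reverse and 24 in Norm-Pro and not Hyp-Pro. Windows of 100 kb gave 47 in Norm-Sen and not Hyp-Imm, 67 in Norm-Pro and not Norm-Sen, 49 in Hyp-Pro and not Hyp-Imm, 37 in Hyp-Pro and not Norm-Pro, 68 the reverse and 6 in all 4, and 500 kb gave 2 Norm ChIP-seq peaks. Peaks covering at least 50% of a region left 1 in all 4. Here and at a −log10 q of at least 5, the region left was the Ntmt1 promoter. Neither the Twist1 nor the Snai1 promoter region stayed in all 4 under these settings. Merging within 500 bp, chosen after seeing the data, gave 5 in all 4 and 13 in Hyp-Pro and not Norm-Pro. The conditions of the file names gave 48 in Hyp-Imm and not Norm-Sen, 15 the reverse, 44 in Hyp-Imm and not Hyp-Pro, 25 the reverse, 29 in Hyp-Pro and not Norm-Pro and 25 the reverse, which turned the order of the 2 counts in all 3 contrasts. Fewer or more peaks enter by construction under the threshold, equal lists and wider windows. For the other settings the cause was not tested. Summits near 6 reads in Hyp-Imm, read at 5 of its 23 peaks, limit every statement on a missing peak.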
